A study of Mus musculus with 87 samples.

Results

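Neural precursors made from Suz12 knock-out mouse embryonic stem cells were compared with the same kind of precursors in which the long isoform of Suz12 had been put back. The members are the genes with a mean of at least 10 normalised reads in that comparison, 15911 of the 26171 gene symbols listed. The libraries were 2 of the rescue (KO-L, full Suz12 knock-out plus long isoform) and 2 of the knock-out (KO), 4 of the 87 samples in the series. All cells derive from the ESC line 129-B13, and the knock-out background was shared by both groups. For differentiation, cells formed embryoid bodies, retinoic acid was added on day 4, and polyadenylated RNA was taken on day 8. The short-isoform rescue (KO-S, 2 samples) and the wild type (WT, 4 samples) of the same stage serve as points of reference. The labels give neither the number of clones behind a group nor the promoter that drives the rescue in these cells. They also do not say that replicates were separate cultures, so p-values measure the spread between these samples, which may be technical.

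Suz12 is a core subunit of Polycomb repressive complex 2 (PRC2), whose Ezh1 or Ezh2 subunit methylates lysine 27 of histone H3. The mark lies on promoters of silent developmental regulators, among them the Hox genes and many lineage factors. Exon 4 of Suz12 is alternatively spliced, and the long isoform contains it. In embryoid bodies, retinoic acid drives cells towards neural progenitors and gives them a hindbrain and spinal cord identity through the Hox clusters.

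The deposited table holds statistics and no values per sample, but the whole reads of each library could be recovered from it for 15840 of the 15911 genes. A level below is a library's reads divided by its size factor (normalised reads), and is comparable between libraries of 1 gene but not between genes. Summed over genes, the recovered reads were 23679052 and 22562474 in the KO libraries and 23744184 and 20009254 in the KO-L libraries. Library numbers name the pairs of the authors' paired fit and are not the labels' replicate numbers. The KO libraries stood apart from each other: 715 of 12214 genes with a mean of at least 100 differed by more than 1 on the log2 scale between them, against 68 between the KO-L libraries. Between a KO and a KO-L library, 2105 to 2535 genes differed by that much. KO-S and WT levels were brought to the same scale through the KO libraries that the tables share, and no test was made across tables on them.

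Genes called in either direction made up 25.8% of those tested. In the authors' deposited table, 1806 genes (11.4% of those tested) were higher in KO-L than in KO at an adjusted p under 0.05 (DESeq2), and 2295 (14.4%) were lower. The falls were larger than the rises: the deposited table's median log2 fold change (KO-L over KO) was 1.14 among genes called higher and -1.63 among genes called lower. A log2 fold change of at least 1 was reached by 1031 genes that rose and 1711 that fell, and one of at least 3 by 227 and 465, in the authors' deposited table. Over all genes tested its median was 0.01. With reads for all 4 libraries, the 1791 genes called higher were higher in both pairs, and the 2294 called lower were lower in both pairs. The groups did not overlap in 1781 and 2279 of them, but they also did not overlap in 66.7% of all genes with reads. Without KO-L library 1, limma on the recovered reads called 499 genes higher and 1075 lower. Without KO-L library 2 it called 483 and 1172. Leaving out KO library 1 gave 3572 and 3770, and leaving out KO library 2 gave 3371 and 3463.

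**Figure D1:**
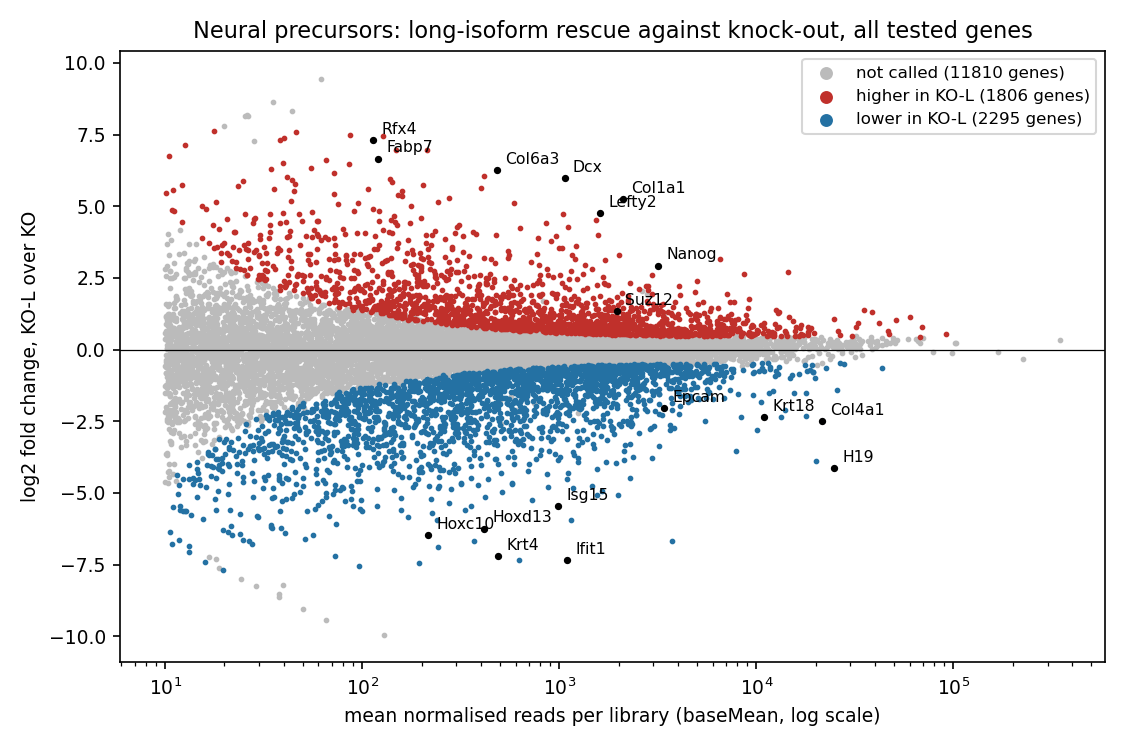
Log2 fold change of KO-L over KO (y axis) against mean normalised reads per library (x axis, log scale) for the 15911 genes tested, with 1 point per gene, red for the 1806 genes called higher and blue for the 2295 called lower by the authors' deposited table. The named genes below 0 include Ifit1, Krt4, Hoxd13 and H19, and those above 0 include Rfx4, Dcx, Col1a1 and Nanog.

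By groups of genes, the falls held interferon-stimulated genes, epithelial, endoderm and trophoblast genes and the posterior Hox genes. The rises held neuronal and proneural genes, pluripotency and Nodal pathway genes, and mesenchymal and endothelial genes. The values of each group follow. Counts of list members called are to be read beside the 11.4% higher and 14.4% lower over all genes tested. Fewer cells of a type and less RNA per cell cannot be told apart in these bulk samples.

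**Figure D2:**
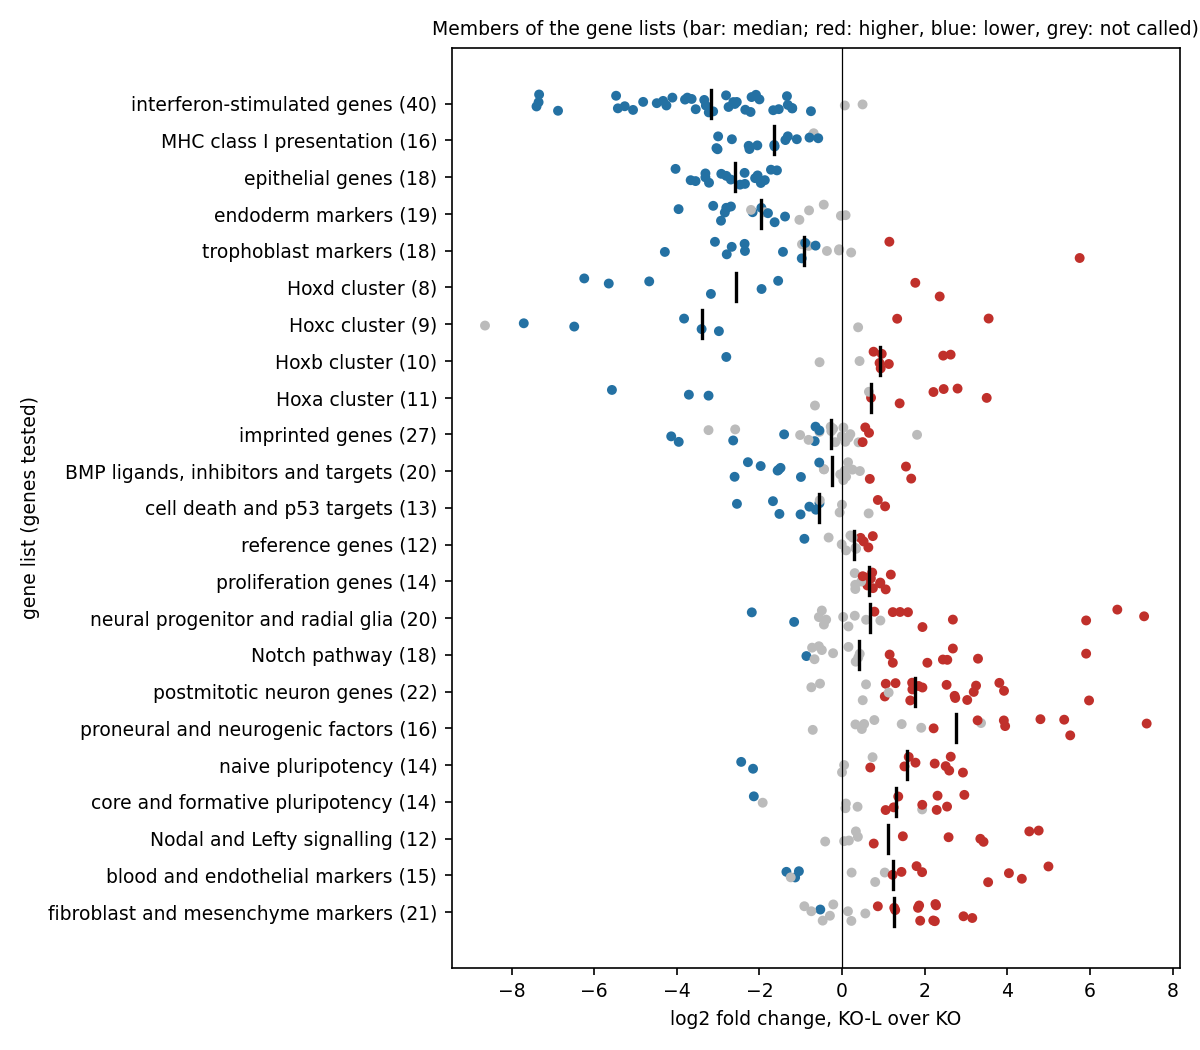
Log2 fold change of KO-L over KO in the authors' deposited table (x axis) for the members of 23 gene lists (y axis, with the number of genes tested), with 1 point per gene, red for called higher, blue for called lower and grey for not called, and a black bar at each median. Medians run from -3.40 for the Hoxc cluster and -3.17 for interferon-stimulated genes to 2.75 for proneural factors.

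The rescued gene was examined first. Suz12 stood at 1071 and 1131 normalised reads in the KO libraries and at 2968 and 2660.0 in the KO-L libraries. The KO-L libraries lay above both KO libraries, with 2664 and 2052 in KO-S, while WT had 5193, 4513, 3219 and 2805. The authors' deposited table gave a log2 fold change of 1.35 ± 0.21 (SE) with an adjusted p of 2.07e-09. Reads do not tell transcript of the knocked-out locus from that of the rescue. Of the 6 PRC2 core subunits tested, 3 rose and 1 fell in the authors' deposited table. Ezh2, the catalytic subunit, went from 1336 and 1271 to 3641 and 3531 normalised reads (1.46 ± 0.2 in the authors' deposited table, adjusted p 6.64e-12). Eed, the subunit that binds the methylated histone, had a log2 fold change of 0.04 ± 0.21 and was not called (adjusted p 0.931 in the authors' deposited table).

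Accessory subunits that direct PRC2 to chromatin were also among the rises, with 4 of 8 called higher and none lower by the authors' deposited table. Phf19, a Polycomb-like protein with a Tudor domain, had 184 and 80.2 normalised reads in KO and 915 and 512 in KO-L, against 89.3 and 44 in KO-S. Both KO-L libraries were thus above every KO and KO-S library. Its deposited table value was 2.49 ± 0.31 (adjusted p 3.05e-14), and KO-L exceeded KO-S by 3.44 ± 0.59 (adjusted p 5.02e-07). Jarid2 (0.61), Aebp2 (0.59) and Mtf2 (0.91) were the other accessory genes called higher in the authors' deposited table. Limma kept 0 and 1 of the 4 accessory rises without KO-L library 1 or 2, the adjusted p being 0.635 for Jarid2 and 0.226 for Aebp2 without KO library 2, 0.0534 for Phf19, 0.638 for Jarid2, 0.584 for Aebp2 and 0.135 for Mtf2 without KO-L library 1 and 0.372 for Jarid2, 0.28 for Aebp2 and 0.0723 for Mtf2 without KO-L library 2. The log2 fold change moved to 1.14 for Jarid2 and 0.96 for Aebp2 without KO library 1 and 0.08 for Jarid2 and 0.22 for Aebp2 without KO library 2. In canonical PRC1, the complex that reads the mark, the authors' deposited table had 3 of 13 subunits lower, among them Bmi1 (-1.86) and Cbx8 (-1.66), and Scmh1 higher (0.76). The calls of Bmi1 and Cbx8 were kept in limma fits that left out 1 library at a time. Those of Scmh1 and of the remaining PRC1 fall were not kept in all of these fits.

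Interferon-stimulated genes fell almost without exception. They encode antiviral effectors and are switched on by a complex of transcription factors when interferon is sensed. In the authors' deposited table, 38 of the 40 tested were lower in KO-L, beside 14.4% of all genes, and none was higher. Their median log2 fold change was -3.17. The 2 genes not called were Ifitm1 (0.5) and Ifitm2 (0.07) in the authors' deposited table.

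Many of these promoters hold the core of the interferon-stimulated response element, the sequence that complex binds. The motif (GAAA, any 2 bases, then GAAA) was searched on both strands, from 250 bases before to 50 bases after the start, in RefSeq promoters (GRCm38.p6). It was present in 3.49% of all 27025 promoters of that length and in 16 of the 29 promoters found for the interferon list (55.2%). Over all tested genes with a promoter found it was in 2.94%, and among genes not called in 2.66%. Among genes called lower it was in 5.31%, among genes called lower outside the list in 4.52%, and among genes called higher in 1.85%. A match is a description of letters and not a binding site. The following 5 stretches are shown because they flank the motif in genes that fell strongly, with 1 match of the motif in capitals on whichever strand it lies, each read 5′ to 3′ along its gene. The promoters of Ifit1, Ifit3 and Irgm1 hold 2 matches each, that of Isg15 holds 3 and that of Rsad2 holds 1, overlapping ones included, and matches beyond the marked one are in lower case where they fall within a stretch:
Ifit1, chr19:34640779-34640838 (plus strand): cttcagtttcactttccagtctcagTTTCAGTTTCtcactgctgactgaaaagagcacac
Ifit3, chr19:34583382-34583441 (plus strand): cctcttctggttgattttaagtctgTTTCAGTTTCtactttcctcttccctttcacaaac
Isg15, chr4:156200850-156200909 (minus strand): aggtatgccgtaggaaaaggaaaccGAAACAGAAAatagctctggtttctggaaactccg
Rsad2, chr12:26456538-26456597 (minus strand): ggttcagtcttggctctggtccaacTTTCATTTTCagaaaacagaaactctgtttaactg
Irgm1, chr11:48871421-48871469 (minus strand): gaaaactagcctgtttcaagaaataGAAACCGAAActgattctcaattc

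Ifit1, whose product binds viral RNA, stood at 2320.0 and 2034 normalised reads in KO and at 11.4 and 15.7 in KO-L. The levels of KO-L lay below those of WT (21, 42.4, 30 and 20.7), and KO-S lay between KO-L and KO at 354 and 157. In the authors' deposited table this was a log2 fold change of -7.34 ± 0.37 with an adjusted p of 9.58e-83. Isg15, a ubiquitin-like modifier, went from 2087 and 1779 to 43.6 and 43.6, with 201 and 81.3 in KO-S. The authors' deposited table gave -5.47 ± 0.28 (adjusted p 2.19e-80). Ifit3 (-7.33) and its near copy Ifit3b (-6.66), between which reads may be split, fell in the same way in the authors' deposited table. So did Ifi44 (-6.87), Ifi47 (-5.71), Sp100 (-5.94) and Rtp4 (-5.26) in the authors' deposited table. Mx1, a dynamin-like GTPase, had 35.2 and 28.8 normalised reads in KO and no read in either KO-L library, which is at least 20.8-fold lower with a floor of 3 reads over the group.

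Some of the factors that turn these genes on fell too. Irf7, the amplifier of the type I response, had 572 and 186 normalised reads in KO and 15.2 and 23.5 in KO-L (-4.11 ± 0.53 in the authors' deposited table, adjusted p 4.79e-13). For Usp18, the protease that removes Isg15 and limits receptor signalling, the values were 3345 and 2659 and 82.4 and 97.3 (-5.06 ± 0.25 in the authors' deposited table, adjusted p 6.72e-86). The KO and KO-L libraries did not overlap in either gene. Of 16 sensors and upstream factors, 6 were lower and none higher in the authors' deposited table, among them Tlr3 (-3.4), Eif2ak2 (-1.19) and Socs3 (-1.79). Limma kept 4 and 3 of the 6 falls without KO-L library 1 or 2. The adaptors Mavs (-0.11) and Sting1 (0.01) and the receptor subunit Ifnar1 (0.03) were not called in the authors' deposited table. Ifnb1, the gene of interferon beta, was below the minimum of 10 reads and was not tested.

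Genes of antigen presentation by MHC class I fell as well. Of its 16 genes, the authors' deposited table had 14 lower and none higher, and the median was -1.64. B2m, the light chain, had 5488 and 8016 normalised reads in KO and 1348 and 1423 in KO-L (-2.26 ± 0.21 in the authors' deposited table, adjusted p 3.29e-26). Tap1, which carries peptides into the endoplasmic reticulum, had 2760.0 and 2964 and 503 and 403 (-2.67 ± 0.22 in the authors' deposited table, adjusted p 2.55e-30). The immunoproteasome subunits Psmb8 (-3.01) and Psmb9 (-3.0) also fell, as did the heavy chain genes H2-K1 (-1.37) and H2-D1 (-2.24), in the authors' deposited table. Heavy chain genes are near-identical and may share reads. With KO-L library 2 left out, limma called 9 members lower.

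The isoforms differed within this program although both lowered it. In the KO-S table, which shares the KO libraries, 38 of the interferon list were lower (18.3% of all genes), and 39 were lower in the WT table (18.3%). By the test of the difference, KO-L stood below KO-S in 12 members (5.71% of all genes) and above it in 6 (4.56%). Ifit1 was lower in KO-L by -4.15 ± 0.45 on the log2 scale (adjusted p 1.38e-17), and Usp18 by -2.67 ± 0.31 (adjusted p 5.13e-15). Oasl2 went the other way, at 1287 and 956 normalised reads in KO-L and 625 and 337 in KO-S (difference 1.27 ± 0.31, adjusted p 0.00105), and so did Parp14 (1.58 ± 0.34, adjusted p 1.33e-04).

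Epithelial genes fell without exception. The authors' deposited table had 18 of 18 tested lower, with a median of -2.58. Krt18, the keratin of simple epithelia, had 17061 and 19417 normalised reads in KO and 3364 and 3747 in KO-L, and 18191 and 21460.0 in KO-S. The 2 KO-L libraries were below all KO and KO-S libraries. The deposited table gave -2.36 ± 0.18 (adjusted p 3.03e-37), and KO-L was below KO-S by -2.48 ± 0.23 (adjusted p 4.26e-24). Krt4, a keratin of stratified epithelia, went from 1035 and 916 to 7.58 and 5.59 (-7.21 ± 0.49 in the authors' deposited table, adjusted p 1.02e-45), with 153 and 176 in KO-S. Krt4 is not on the epithelial list and is named as among the 15 largest falls.

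Adhesion genes of epithelia behaved alike. Epcam had 5396 and 5521 normalised reads in KO and 1444 and 1213 in KO-L (-2.04 ± 0.2 in the authors' deposited table, adjusted p 6.29e-23). Cdh1, which encodes E-cadherin, had 24448 and 21119 and 5745 and 4870.0 (-2.1 ± 0.18, adjusted p 3.26e-30 in the authors' deposited table). The tight junction claudins Cldn3 (-3.22) and Cldn7 (-3.31) fell, and so did the epithelial regulators Grhl2 (-3.66), Ovol1 (-2.92) and Trp63 (-4.03), in the authors' deposited table. The splicing factors Esrp1 (-1.72) and Esrp2 (-2.47), which set epithelial exon choice, were lower too in the authors' deposited table. Each fall held in limma with any 1 library left out. The KO-S table called 10 members lower and the WT table called 18, beside 18.3% of all genes in each. By the test of the difference KO-L stood below KO-S in 15, beside 5.71% of all genes.

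Endoderm and trophoblast genes fell as well. Of 19 endoderm genes, 12 were lower and none higher by the authors' deposited table, with a median of -1.95. Foxa2, a pioneer factor of endoderm and of the floor plate, had 1615 and 2306 normalised reads in KO, 212 and 233 in KO-L and 1086 and 1213 in KO-S (-3.12 ± 0.24 in the authors' deposited table, adjusted p 1.81e-35). Foxa1 (-2.93), Sox17 (-2.16), Hnf4a (-2.69) and the retinol carrier Rbp4 (-3.96) followed in the authors' deposited table. The KO libraries disagreed on several secreted products of visceral endoderm. Apoa1 was at 213 and 4263 normalised reads in KO and 121 and 356 in KO-L (-2.2 ± 1.15, adjusted p 0.163 in the authors' deposited table). Afp was at 157 and 2466 and 140.0 and 208 (adjusted p 0.354 in the authors' deposited table). Apob, at 397 and 3378 and 124 and 213, was called lower (-2.84 ± 1.0 in the authors' deposited table, adjusted p 0.0215), with a limma adjusted p of 0.183 without KO-L library 1 and 0.0776 without KO-L library 2 and a log2 fold change of -4.37 without KO library 1 and -1.28 without KO library 2. KO-L was below KO-S in 10 endoderm genes and above it in 2, beside 5.71% and 4.56% of all genes.

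Of 18 trophoblast genes, 10 were lower and 2 higher in the authors' deposited table. Elf5, a trophoblast stem cell factor, had 684 and 445 normalised reads in KO and 25.6 and 31.3 in KO-L, and Gata3 had 1839 and 1049 and 158 and 172. Their log2 fold changes in the authors' deposited table were -4.29 ± 0.4 (adjusted p 9.88e-25) and -3.08 ± 0.29 (adjusted p 2.48e-24). The KO-L libraries themselves disagreed on the placental genes Tpbpa (103 and 695) and Ctsj (37.9 and 468). Those 2 genes were called higher in the authors' deposited table (5.75 ± 2.18, adjusted p 0.0360, and 7.44 ± 2.88, adjusted p 0.0413). Tpbpa is on this list and Ctsj is not, and the list's other rise is not named here. The call did not hold in limma, with an adjusted p of 0.0817 for Tpbpa and 0.0520 for Ctsj without KO-L library 2; the log2 fold changes that moved were 3.82 for Tpbpa without KO library 2 and 4.34 for Ctsj without KO-L library 2.

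Basement membrane genes, which epithelia and parietal endoderm deposit, were among the most abundant RNAs that fell. Col4a1 had 37854 and 35014 normalised reads in KO and 4893 and 8480.0 in KO-L, and Col4a2 had 24464 and 34681 and 4387 and 7723. For Col4a1 the KO-L libraries were below those of KO and of KO-S (17073 and 19996), and WT is not compared here. The authors' deposited table gave -2.5 ± 0.23 (adjusted p 1.59e-26) for Col4a1 and -2.32 ± 0.18 (adjusted p 4.15e-34) for Col4a2. The laminin chain gene Lama1 (-2.35) fell with them in the authors' deposited table. The secreted chaperone Clu went from 27316 and 48295 to 2049 and 2927 (-3.89 ± 0.18 in the authors' deposited table, adjusted p 2.88e-95). Cxcl15, a chemokine of epithelia, went from 5034 and 9812 to 64.4 and 72.7 (-6.68 ± 0.25 in the authors' deposited table, adjusted p 4.84e-150).

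The Hox genes split by position. Genes at the 3′ ends of the clusters, which pattern the hindbrain, were mostly higher in KO-L, and most genes at the 5′ ends, which pattern the trunk and tail, were lower. In the authors' deposited table, 6 of 11 Hoxa genes were higher and 3 lower, 7 of 10 Hoxb genes higher and 1 lower. The Hoxc cluster had 2 higher and 5 lower of 9, and the Hoxd cluster 2 and 6 of 8, in the authors' deposited table. Limma without KO-L library 1 or 2 kept 1 and 1 of the 7 Hoxb rises, 5 and 4 of the 6 Hoxa rises, 2 and 1 of the 2 Hoxc rises and 1 and 1 of the 2 Hoxd rises. Of the falls it kept 3 and 3 of the 3 in Hoxa, 1 and 1 of the 1 in Hoxb, 5 and 5 of the 5 in Hoxc and 5 and 5 of the 6 in Hoxd.

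Among the anterior genes, Hoxa2 had 100 and 48.3 normalised reads in KO and 456 and 530.0 in KO-L (2.8 ± 0.4 in the authors' deposited table, adjusted p 5.16e-11). Hoxb5 had 382 and 366 and 1655 and 2524 (2.45 ± 0.25, adjusted p 5.52e-21 in the authors' deposited table). Hoxc5 (3.55), Hoxd3 (2.36), Hoxa5 (2.21) and Hoxa6 (3.5) rose too in the authors' deposited table. The exception at the anterior end was Hoxd1, which fell from 248 and 243 to 68.2 and 59.3 (-1.95 ± 0.44 in the authors' deposited table, adjusted p 8.79e-05). Hoxb1 (2.63), Hoxb8 (0.96) and Hoxb9 (0.94) were called higher in the authors' deposited table. In limma fits without 1 library their adjusted p was 0.0835 for Hoxb1, 0.0734 for Hoxb8 and 0.0808 for Hoxb9 without KO-L library 1 and 0.113 for Hoxb1, 0.13 for Hoxb8 and 0.112 for Hoxb9 without KO-L library 2, and the log2 fold change was 1.49 for Hoxb1 without KO library 2.

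Several posterior genes had few reads left in KO-L. Hoxd13, the last gene of its cluster, had 913 and 726 normalised reads in KO, 9.47 and 12.3 in KO-L and no read in KO-S (-6.24 ± 0.44 in the authors' deposited table, adjusted p 6.56e-43). Hoxc10 had 315 and 541 in KO and 4.74 and 4.48 in KO-L, near the levels of KO-S (3.68 and 4.78) and WT (7.88, 6.41, 6.46 and 2.71). Its log2 fold change was -6.48 ± 0.62 in the authors' deposited table (adjusted p 8.60e-24). Hoxc12 had 38.8 and 40.1 in KO and no read in KO-L, at least 25.6-fold lower with a floor of 3 reads over the group. Hoxc11, with a mean of 75.8 in KO, had no read in KO-L either. Of Hoxc11 and Hoxc12, the authors' deposited table called 1 lower and did not call the other. Hoxa9 (-3.23), Hoxa10 (-3.71), Hoxa11 (-5.57), Hoxd9 (-3.17), Hoxd10 (-5.65), Hoxd11 (-4.67) and Hoxb13 (-2.8) also fell in the authors' deposited table. Hoxb13 kept 430.0 and 487 normalised reads in KO-L, and Hoxa13 (-0.65) was not called in the authors' deposited table. Some of these loci carry antisense transcripts, and whether reads were counted by strand is not given in the sources used here.

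In the middle of the clusters the isoforms differed. Hoxc9 had 624 and 665 normalised reads in KO, 66.3 and 55.9 in KO-L and 6.44 and 2.87 in KO-S (difference 3.72 ± 0.66, adjusted p 1.22e-06). Hoxa7 had 103 and 107, 163 and 167 and 23.9 and 13.4 (difference 3.19 ± 0.81, adjusted p 0.00178), and the authors' deposited KO-L table did not call it (adjusted p 0.339). In both, the KO-L libraries kept more reads than the KO-S libraries. In the Hoxb cluster KO-L stood below KO-S in 6 of 10 genes and above it in 1 by the test of the difference. The shares of all genes were 5.71% and 4.56%.

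**Figure D3:**
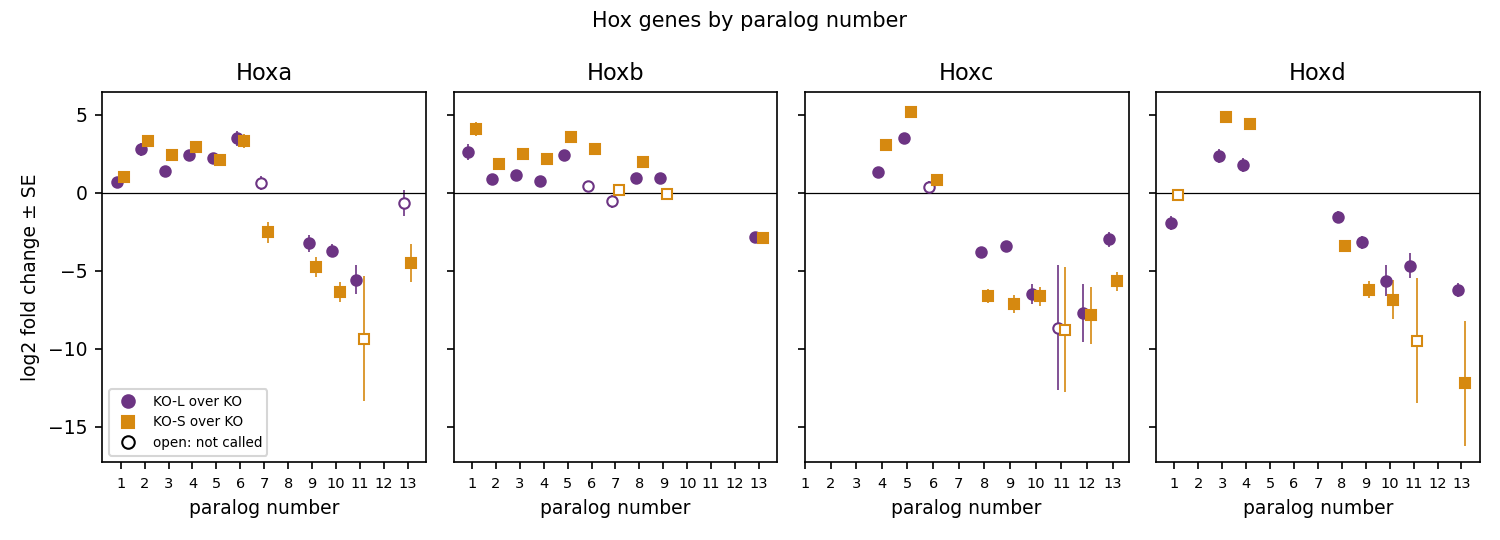
Log2 fold change with its SE (y axis) of each Hox gene tested by paralog number (x axis), in the authors' deposited tables, for KO-L over KO (purple circles) and KO-S over KO (orange squares), which share the KO libraries, with open symbols for genes not called. Symbols lie above 0 for most low paralog numbers and below 0 for paralog numbers 9 to 13 of the Hoxa, Hoxc and Hoxd clusters. The open circles of KO-L among the latter include Hoxa13 (-0.65).

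Neuronal genes were higher in KO-L. Of 22 genes of postmitotic neurons, 17 were higher in the authors' deposited table beside 11.4% of all genes, and none was lower, with a median of 1.78. Dcx, a microtubule protein of young neurons, had 13.5 and 73 normalised reads in KO, 1620.0 and 2548 in KO-L and 1759 and 2121 in KO-S. Both KO-L libraries exceeded both KO libraries, and the 2 WT libraries with a value had 7328 and 8059. The authors' deposited table gave 5.98 ± 0.81 (adjusted p 4.98e-12). Tubb3, the neuronal beta-tubulin, went from 436 and 544 to 2550.0 and 3109 (2.53 ± 0.21, adjusted p 2.12e-30 in the authors' deposited table). The RNA-binding proteins Elavl3 (2.74) and Elavl4 (3.81), the intermediate filament Ina (3.19) and the adhesion protein Cntn2 (3.03) rose as well in the authors' deposited table. Synaptophysin, Syp (-0.53), and L1cam (-0.74) were not called in the authors' deposited table. In limma without KO-L library 2, 10 members were called higher.

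Proneural factors, which commit progenitors to neurogenesis, were among the largest rises: 8 of 16 tested were higher and none lower by the authors' deposited table. Neurog2 had 3.61 and 4.11 normalised reads in KO, 99.5 and 116 in KO-L and 693 and 670.0 in KO-S (4.8 ± 0.84 in the authors' deposited table, adjusted p 1.52e-07). Neurod4 had 0 and 1.03 and 62.5 and 96.2 (7.37 ± 1.58, adjusted p 3.41e-05 in the authors' deposited table). Each was nearly silent in the KO libraries. Nhlh2 (5.38), the zinc finger factors Myt1 (5.52), Scrt1 (5.84) and Scrt2 (5.96), and Insm1 (3.28) rose with them in the authors' deposited table. Scrt1 and Scrt2 are not on the proneural list and are named as among the 15 largest rises. In the KO-S and WT tables, which share the KO libraries, 14 and 14 of the list were called higher (16.7% and 16.5% of all genes).

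Neural progenitor genes did not move as 1 group. Of 20 tested, 9 were higher and 2 lower by the authors' deposited table. Rfx4, a regulator of neural tube patterning, had 1.81 and 1.03 normalised reads in KO and 246 and 206 in KO-L (7.31 ± 0.97 in the authors' deposited table, adjusted p 1.75e-12). Fabp7, the fatty acid carrier of radial glia, had 0.903 and 4.11 and 181 and 295 (6.66 ± 0.82, adjusted p 1.43e-14 in the authors' deposited table). Hes5, the Notch effector, went from 1.81 and 1.03 to 79.6 and 92.9 (5.91 ± 1.13, adjusted p 2.05e-06 in the authors' deposited table). Nes (1.6) and Msi1 (1.4) rose too.

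The neuroectodermal factors Pax6 and Sox1 stood apart from these. Pax6 was at 295 and 280.0 normalised reads in KO and 319 and 397 in KO-L, while KO-S had 2487 and 2585 and WT 2535, 1672, 3739 and 3819. The authors' deposited table did not call it (0.31 ± 0.33, adjusted p 0.577), and KO-L was below KO-S by -2.83 ± 0.38 (adjusted p 2.53e-11). Sox1 was at 270.0 and 638 in KO, 83.4 and 101 in KO-L and 801 and 820.0 in KO-S, so that the KO-L libraries were the lowest. Its deposited table value was -2.18 ± 0.38 (adjusted p 1.68e-07), and the difference from KO-S was -3.14 ± 0.48 (adjusted p 8.97e-09). Without KO-L library 1, the limma adjusted p was 0.0515 for Sox1. By the test of the difference, KO-L was below KO-S in 8 of the progenitor genes and above it in 1. The shares of all genes were 5.71% and 4.56%.

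Along the dorsoventral axis of the neural tube, 7 of 28 factors were higher and 10 lower by the authors' deposited table. Over all genes tested, 11.4% were higher and 14.4% lower. Dbx1, which marks an intermediate progenitor domain, had 3.61 and 1.03 normalised reads in KO, 265 and 321 in KO-L and 2159 and 2280.0 in KO-S (6.95 ± 0.81 in the authors' deposited table, adjusted p 4.50e-16). Msx3, a dorsal factor, had 5.42 and 21.6 and 806 and 832 (6.06 ± 0.46, adjusted p 4.28e-37 in the authors' deposited table). Among the falls were the following. Shh, the floor plate ligand, fell from 549 and 636 to 67.3 and 92.9 (-2.9 ± 0.33 in the authors' deposited table, adjusted p 1.92e-16), and the motor neuron factors Mnx1 (-2.88) and Isl2 (-3.17) fell too. Lhx3 (1.74), another motor neuron factor, was not called in the authors' deposited table, and the ventral progenitor gene Olig2 (1.92) was not called either. In limma fits without KO-L library 1 or 2, the calls kept were 2 and 2 of the 7 rises and 6 and 7 of the 10 falls of this list. Of 18 forebrain, midbrain and hindbrain factors, 4 were higher and 2 lower by the authors' deposited table, with a median of -0.64. Among them Wnt1 (4.19), Pax5 (4.02) and Six6 (3.54) rose, Otx1 (-4.55) and Six3 (-2.5) fell, and En1 (-0.95), En2 (-0.97), Gbx2 (-0.6) and Otx2 (-1.92) were not called in the authors' deposited table. Without 1 library, the limma adjusted p was 0.0765 for Six6 and 0.10 for Six3 without KO-L library 1 and 0.0874 for Six6 without KO-L library 2.

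**Figure D4:**
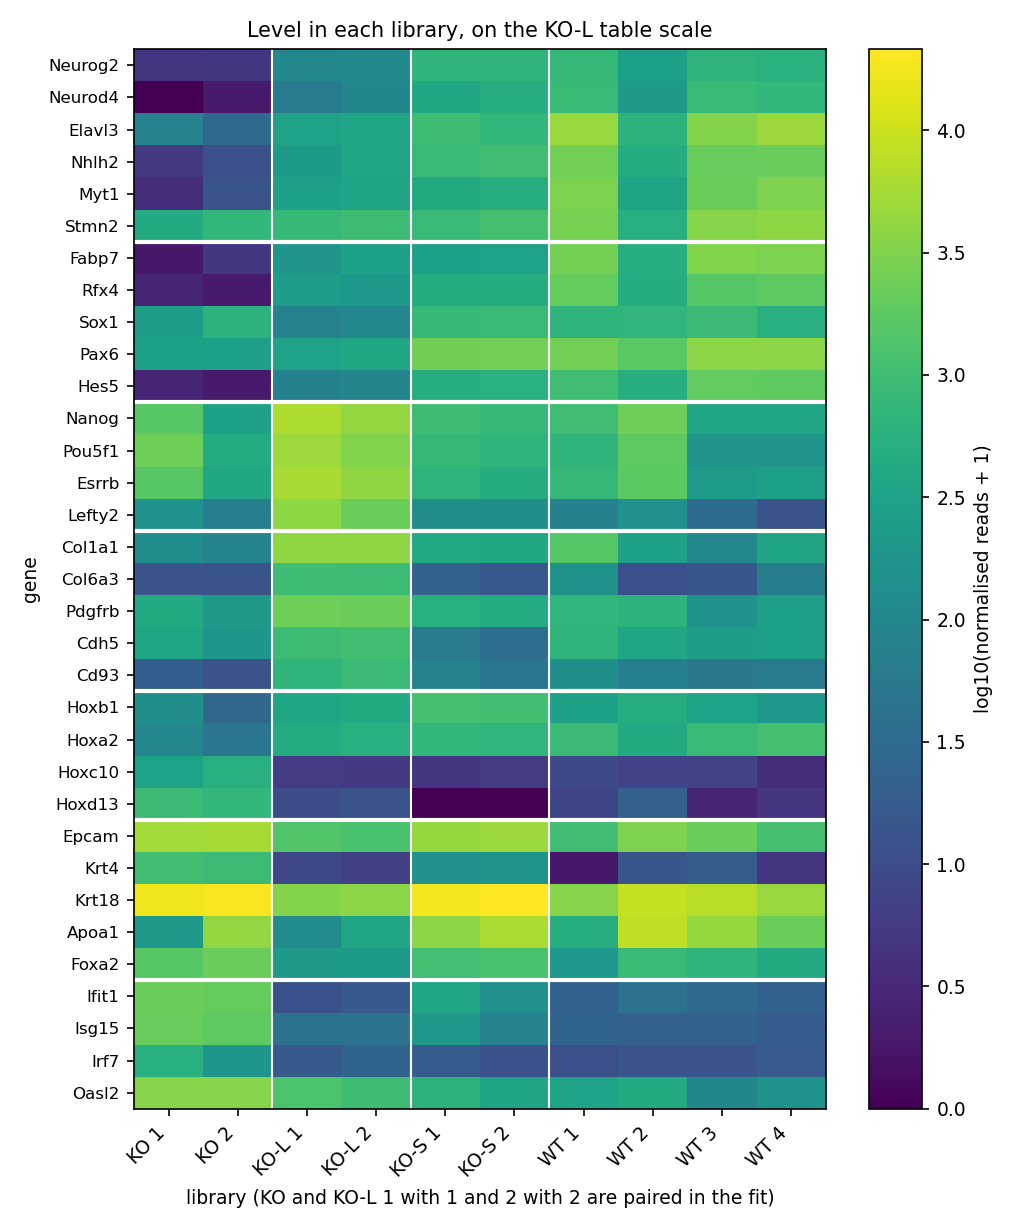
Levels of 33 genes (y axis, grouped by role) in each library of KO, KO-L, KO-S and WT (x axis), coloured by log10 of normalised reads plus 1 on the scale of the KO-L table. The 2 KO-L columns are dark at Ifit1 (11.4 and 15.7 normalised reads) and Krt4 (7.58 and 5.59) and bright at Nanog (6412 and 4335) and Col1a1 (4144 and 4046), and the KO columns differ at Apoa1 and Nanog.

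Pluripotency genes were mostly higher in KO-L. In the authors' deposited table, 9 of 14 naive pluripotency genes were higher and 2 lower, and 8 of 14 core and formative genes were higher and 1 lower. Nanog had 1580.0 and 303 normalised reads in KO, 6412 and 4335 in KO-L, 982 and 770.0 in KO-S, while WT had 1025, 2384, 355 and 348. Both KO-L libraries were above those of KO, KO-S and WT, but the KO libraries differed from each other several-fold. The authors' deposited table gave 2.93 ± 0.82 (adjusted p 0.00240). In limma, its adjusted p without KO-L library 1 was 0.0683, and its log2 fold change without KO library 2 was 1.74. Pou5f1, the gene of Oct4, had 2413 and 455 and 5042 and 3212 and was not called (1.94 ± 0.82, adjusted p 0.0664 in the authors' deposited table).

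Sox2, shared by pluripotent and neural cells, had 743 and 414 normalised reads in KO and 3300.0 and 2312 in KO-L (2.31 ± 0.22 in the authors' deposited table, adjusted p 3.75e-24). Utf1 (2.54), Dppa4 (2.96) and Lin28a (1.94) rose too in the authors' deposited table. The factors Klf4 (-2.15) and Klf5 (-2.44), which epithelia also express, and the epiblast ligand Fgf5 (-2.13) fell in the authors' deposited table. KO-L stood above KO-S in 6 naive genes and below it in 1 by the test of the difference (4.56% and 5.71% of all genes). The WT table called 10 naive genes lower than in KO and none higher (18.3% and 16.5% of all genes). Without KO-L library 1, limma called 0 of the naive genes higher, and without KO-L library 2 it called 4. For the core and formative rises it kept 4 and 7 of the 8.

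Nodal, Lefty1 and Lefty2, which pluripotent cells and the early embryo express, rose with other genes of their pathway. The authors' deposited table had 7 of 12 pathway genes higher, none lower, and a median of 1.12. Lefty2, a secreted Nodal inhibitor, had 167 and 70.9 normalised reads in KO, 3906 and 2286 in KO-L, 136 and 142 in KO-S, while WT had 75.3, 152, 31.7 and 11.7. The KO-L libraries stood far above those of KO, KO-S and WT. Its log2 fold change in the authors' deposited table was 4.76 ± 0.24 (adjusted p 9.58e-83), and KO-L exceeded KO-S by 4.42 ± 0.55 (adjusted p 1.96e-13). Lefty1 had 182 and 81.2 and 3724 and 2175, the ligand gene Nodal 203 and 85.3 and 1682 and 1094. Their log2 fold changes were 4.53 ± 0.24 and 3.35 ± 0.28 in the authors' deposited table (adjusted p 2.89e-77 and 1.76e-31). Foxh1, the DNA-binding partner of Smad2 and Smad3, rose by 3.43 in the authors' deposited table. The receptor genes Acvr2b (0.38) and Acvr1b (-0.41) were not called there.

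Mesenchymal genes, which cells of connective tissue express, were another set of rises. Of 21 fibroblast and mesenchyme genes, the authors' deposited table had 12 higher and 1 lower, with a median of 1.26. The collagen genes Col1a1 and Col6a3 are outside this list, and of 28 collagens 9 were higher and 6 lower there. Col1a1, the main fibrillar collagen chain, had 133 and 85.3 normalised reads in KO, 4144 and 4046 in KO-L, 406 and 392 in KO-S, while WT had 1567, 306, 98.7 and 337. The KO-L libraries lay above all 8 others. The authors' deposited table gave 5.25 ± 0.24 (adjusted p 1.25e-102), and KO-L exceeded KO-S by 3.35 ± 0.43 (adjusted p 1.12e-12). Col6a3 went from 12.6 and 12.3 to 986 and 920.0, with 23 and 14.3 in KO-S (6.25 ± 0.4 in the authors' deposited table, adjusted p 3.42e-52). Pdgfrb, a receptor of pericytes and fibroblasts, had 445 and 209 and 2409 and 2306 (2.94 ± 0.27, adjusted p 2.66e-25 in the authors' deposited table). Col3a1 (3.15), smooth muscle actin Acta2 (2.21), the gelatinase Mmp2 (2.11), N-cadherin Cdh2 (2.25) and the repressors Zeb1 (3.15) and Zeb2 (2.28), which silence epithelial genes, rose as well in the authors' deposited table. Tagln (0.23), Snai1 (-0.47) and Twist2 (-0.21) were not called in the authors' deposited table. Without KO-L library 2, limma called 7 of the list higher. KO-L stood above KO-S in 8 of the genes and below it in 1 by the test of the difference (4.56% and 5.71% of all genes). The KO-S table called 5 higher and 5 lower (16.7% and 18.3% of all genes), and the WT table called 3 and 8 (16.5% and 18.3%).

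Endothelial genes were mostly higher, whereas the pan-leukocyte gene Ptprc and the globin gene Hbb-y had too few reads to be tested. The authors' deposited table had 8 of 15 genes of this list higher and 3 lower. Cdh5, the cadherin of endothelial junctions, had 355 and 185 normalised reads in KO, 919 and 1063 in KO-L and 61.7 and 36.3 in KO-S (1.94 ± 0.32 in the authors' deposited table, adjusted p 1.54e-08). Cd93, a lectin-like receptor of endothelium, had 19 and 12.3 and 670.0 and 896 (5.62 ± 0.41, adjusted p 4.66e-40 in the authors' deposited table). Stab1 (6.95), a scavenger receptor, Erg (5.0), Emcn (4.35), Tie1 (4.04) and Kdr (1.8) rose in the authors' deposited table. Cd93 and Stab1 are not on this list and are named as among the 15 largest rises. The VEGF receptor gene Flt1 (-1.13), which endothelium expresses, and the blood and endothelial regulators Gata2 (-1.35) and Runx1 (-1.04) were called lower in the authors' deposited table. With 1 library left out, the limma adjusted p was 0.0663 for Flt1 without KO library 2, 0.31 for Flt1, 0.0977 for Gata2 and 0.149 for Runx1 without KO-L library 1 and 0.0945 for Flt1, 0.0902 for Gata2 and 0.0857 for Runx1 without KO-L library 2, and the log2 fold change was -0.80 for Gata2 without KO library 1 and -0.56 for Flt1 without KO library 2. KO-L stood above KO-S in 9 genes of the list and below it in 0, beside 4.56% and 5.71% of all genes. Ptprc, the pan-leukocyte marker, and the embryonic globin Hbb-y were below the minimum of 10 reads. Without KO-L library 1, limma called 5 of the list higher.

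Retinoic acid genes moved in both directions, 8 higher and 7 lower of 24 in the authors' deposited table. The shares of all genes were 11.4% and 14.4%. Aldh1a1, which makes retinoic acid from retinal, had 820.0 and 1399 normalised reads in KO, 49.3 and 92.9 in KO-L and 3425 and 4637 in KO-S. It was thus lowest in KO-L and highest in KO-S. The authors' deposited table gave -3.98 ± 0.29 for KO-L (adjusted p 5.22e-40) and 1.89 ± 0.18 for KO-S (adjusted p 1.37e-24), and the difference was -5.88 ± 0.34 (adjusted p 4.59e-62). The binding proteins Crabp1 (2.27) and Crabp2 (1.43) rose in the authors' deposited table. The receptor Rarb (-0.28) was not called in the authors' deposited table. Leaving out KO-L library 1 or 2, limma kept 4 and 3 of the 7 rises with reads and 1 and 3 of the 7 falls of the list.

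In the signalling pathways, Notch had 8 of 18 genes higher and 1 lower by the authors' deposited table, with the ligand Dll3 (2.68) and the targets Hey1 (2.44) and Heyl (2.55) among the rises. Hedgehog had 6 higher and 2 lower of 14 in the authors' deposited table: the receptor and target Ptch1 (1.2) and the co-receptor Boc (2.02) rose, while the ligands Shh (-2.9) and Ihh (-3.64) fell. Wnt genes were split, 7 higher and 6 lower of 34 in the authors' deposited table, with Wnt3a (3.64) up and Wnt6 (-2.93) down. The BMP list had 3 higher and 8 lower of 20 in the authors' deposited table, the ligand genes Bmp2 (-1.56) and Bmp7 (-1.54) falling. The FGF list had 5 higher and 4 lower of 17 in the authors' deposited table. Over all genes tested, 11.4% were higher and 14.4% lower, and the 2 Hedgehog falls of 14 were near that share. Limma without KO-L library 1 or 2 kept 7 and 5 of the 8 Notch rises, 2 and 2 of the 6 Hedgehog rises, 4 and 5 of the 7 Wnt rises and 4 and 3 of the 6 Wnt falls. For the BMP list it kept 0 and 0 of the 3 rises and 3 and 4 of the 8 falls, and for the FGF list 2 and 2 of the 5 and 2 and 2 of the 4.

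Genes that block the cell cycle were lower in KO-L at the Cdkn2 locus, a known target of PRC2. Cdkn2a had 2244 and 3405 normalised reads in KO and 583 and 462 in KO-L (-2.41 ± 0.26 in the authors' deposited table, adjusted p 3.98e-19). Cdkn2b had 1250.0 and 1954 and 282 and 216 (-2.66 ± 0.29, adjusted p 1.38e-18 in the authors' deposited table). KO-S had 201 and 293 for Cdkn2a, below KO-L by the test of the difference (1.1 ± 0.32, adjusted p 0.00992). Proliferation genes were 10 higher and 0 lower of 14, with a median of 0.66, in the authors' deposited table. Commonly used reference genes had a median of 0.29 there, with 4 of 12 called higher and 1 lower. Of glycolysis and hypoxia genes 10 of 18 were higher and 1 lower, and of ATF4 stress genes 11 of 19 and 2, in the authors' deposited table. The p53 list had 7 of 13 lower and 2 higher there. These counts were lower with a KO-L library left out: without library 1 or 2 of KO-L, limma kept 0 and 1 of the 10 proliferation rises, 0 and 0 of the 8 glycolysis and hypoxia rises with reads and 1 and 2 of the 11 ATF4 rises. It kept 0 and 0 of the 2 reference gene rises with reads and 2 and 1 of the 7 p53 falls.

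Among imprinted genes, 7 of 27 were lower and 3 higher in the authors' deposited table. The noncoding RNA H19 went from 51969 and 42067 normalised reads in KO to 2669 and 2656 in KO-L, with 1831 and 2244 in KO-S (-4.13 ± 0.18 in the authors' deposited table, adjusted p 1.29e-108). Its neighbour Igf2 had a log2 fold change of 0.4 and was not called (adjusted p 0.0850 in the authors' deposited table). Rian, from another imprinted cluster, went from 231 and 214 to 11.4 and 17.9 (-3.95 ± 0.55, adjusted p 2.35e-11 in the authors' deposited table). Germline genes had 4 higher and 2 lower of 22 in the authors' deposited table. The shares of all genes were 11.4% higher and 14.4% lower. Limma without KO-L library 1 or 2 kept 3 and 2 of the 6 imprinted falls with reads, 0 and 0 of the 3 imprinted rises, 2 and 2 of the 4 germline rises and 0 and 0 of the 2 germline falls. Dmrt1, a regulator of germ cells and of sex determination, went from 313 and 102 to 3554 and 2345 and stood at 62.6 and 48.8 in KO-S (3.99 ± 0.27 in the authors' deposited table, adjusted p 3.54e-47).

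Y-linked genes differed between the groups. Ddx3y had 1300.0 and 1152 normalised reads in KO, 162 and 418 in KO-L, 83.8 and 267 in KO-S, while WT had 812, 1593, 1294 and 1140.0. Eif2s3y had 1317 and 1801, 138 and 408 and 87.5 and 262. The authors' deposited table had Ddx3y (-2.22), Eif2s3y (-2.68), Uty (-2.77) and Kdm5d (-4.84) lower, and did not call the 2 further Y-linked genes tested, Uba1y and Zfy1. The KO-L libraries also differed between themselves, library 2 being the higher in these genes. The part of this difference in the other results was not tested.

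Markers of cell types were then summed in each library. Neural precursor markers summed to 2484 and 3359 normalised reads in KO, 5409 and 7112 in KO-L and 12184 and 12306 in KO-S. WT had 17843, 8242, 21654 and 20350 for that sum. Neuron markers (3 of 4 genes) summed to 969 and 1324 in KO and 3644 and 4450.0 in KO-L. KO-S had 3908 and 5118 for them, and WT had 16618, 3738, 19148 and 18831. Markers of the labelled cell type were thus present in KO-L, and both sums were higher than in KO. For the precursor sum KO-L stayed below KO-S and WT. Of the 6 precursor markers, the authors' deposited table had 3 higher and 1, Sox1, lower. Nes had the largest mean of them (3343 normalised reads, against 488 for Sox3), so the precursor sum weights Nes most. Markers of undifferentiated ESC summed to 10847 and 2666 in KO, 36116 and 24870.0 in KO-L, 4674 and 4356 in KO-S, while WT had 4801, 10576, 1464 and 1760.0. Fibroblast markers summed to 4944 and 5807 in KO, 20430.0 and 22670.0 in KO-L and 3392 and 3703 in KO-S, and endothelial markers to 901 and 465, 3206 and 2792 and 242 and 162. For these 3 cell types both KO-L libraries were above every KO, KO-S and WT library. Of the 6 fibroblast markers, 5 were higher in the authors' deposited table and 1, the receptor gene Pdgfra (-0.53), was lower. Endoderm markers summed to 4191 and 9072 in KO and 2294 and 3164 in KO-L, and trophoblast markers to 2831 and 2145 and 483 and 377. Blood markers summed to at most 35.1 and muscle markers to at most 40.6 in these 4 libraries. The part of these cell types in the neural, epithelial and interferon results was not tested.

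**Figure D5:**
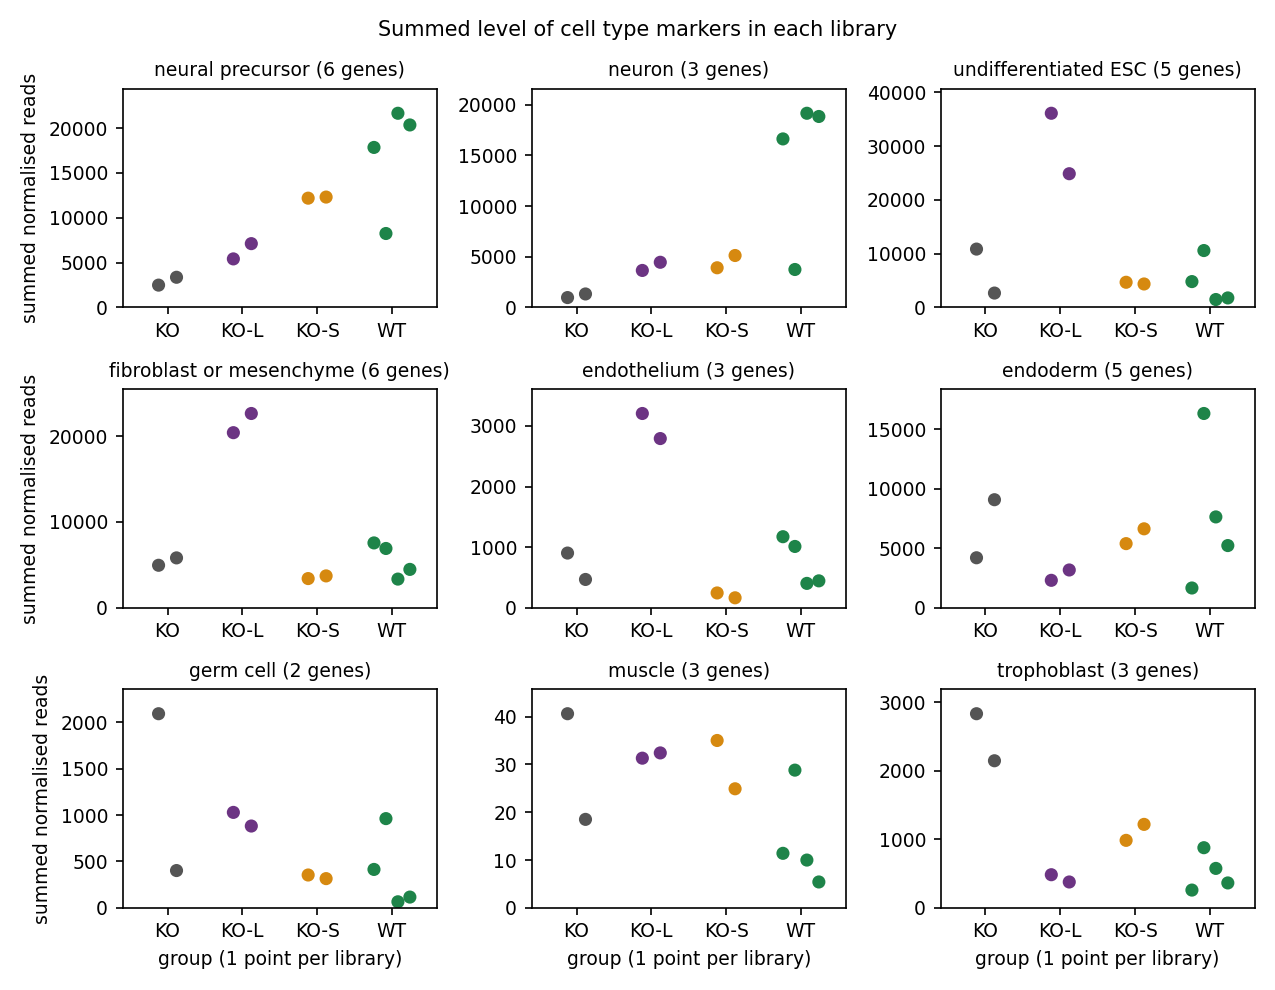
Summed normalised reads of cell type markers (y axis, linear, from 0) in each library of KO, KO-L, KO-S and WT (x axis), with 1 point per library and the number of genes summed in each panel title. KO-L stands highest for undifferentiated ESC (36116 and 24870.0), fibroblast (20430.0 and 22670.0) and endothelium (3206 and 2792).

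The difference between the isoforms was tested over 15615 genes with a mean of at least 10 in both tables. KO-L stood above KO-S in 712 genes (4.56%) and below it in 892 (5.71%). The standard error was taken as for independent tables although both use the KO libraries, which makes the test conservative. Beyond the genes above, Pgbd5, a transposase-derived gene, was at 2296 and 1919 normalised reads in KO-L and 120.0 and 107 in KO-S (difference 4.21 ± 0.55, adjusted p 3.08e-12). Hic1, a transcriptional repressor, was at 2208 and 2299 and 154 and 104 (difference 4.15 ± 0.49, adjusted p 9.50e-15). Below KO-S stood Barx2, a homeobox factor (16.1 and 14.5 and 563 and 675, difference -5.32 ± 0.48, adjusted p 5.04e-25), and Rab27b, a GTPase of secretion (30.3 and 43.6 and 663 and 694, difference -4.22 ± 0.35, adjusted p 6.18e-31). For Barx2 the KO-S libraries lay between the KO libraries (543 and 849). Rab27b in KO-S lay between KO-L and KO (2190.0 and 2343).

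Genes near ESC chromatin regions were counted last. The regions are 6882 H3K27me3 and 2865 Suz12 regions that the authors found to differ in ESC, by lists that do not say in which direction. Of 4063 tested genes with a gene end or start within 2500 bases of an H3K27me3 region, 14.2% were called higher and 23.3% lower by the authors' deposited table. For the 2183 genes near a Suz12 region the shares were 16.0% and 26.5% in the authors' deposited table. Genes near neither (11814) had 10.3% and 11.3%, so that the shares of falls differed more than those of rises. Genes near a Suz12 region had a median level of 215 normalised reads and genes near neither one of 774, and its part in the shares was not tested. Hoxd13, Hoxc10, Hoxa9, Foxa2, Cdkn2a and Isg15 lay near regions of both lists, Krt18, Krt4 and Col1a1 near an H3K27me3 region alone, and Ifit1 and Nanog near neither.

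The same genes can be set beside undifferentiated ESC. In the authors' deposited ESC table of KO-L against WT, 14306 of the genes tested here also had a mean of at least 10. Of these, 201 were higher and 102 lower, and Suz12 was at -1.05 ± 0.28 (adjusted p 0.0143). Of the interferon list 1 of 28 was higher and 1 lower in the ESC KO-L table that the authors deposited. Their ESC KO table called 3 and 2 of 28, beside 1715 and 1215 of 14560 genes. Isg15 had a mean of 8.68 normalised reads there and was not called (adjusted p 0.97). The authors' deposited ESC table had Col1a1 higher in KO-L than in WT (3.29 ± 0.42, adjusted p 1.86e-11), and Lefty2 as well (1.52 ± 0.28, adjusted p 2.43e-05). Epcam was not called in that table (-0.27 ± 0.28, adjusted p 0.934).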

How the data were processed

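Polyadenylated RNA of neural precursors was analysed from the tables of gene statistics that the authors deposited, of which the one for KO-L against KO is the main one. Per the file headers, the column names are those of DESeq2 output. As deposited, baseMean is a signal: reads over size factor, averaged across the libraries of a comparison. Fold changes and SE are on the log2 scale per the file headers, and the p-value and adjusted p-value are those the authors deposited. The deposited test statistic is a score, equal to fold change over SE. The submitters' processing notes name Bowtie, TopHat, DESeq2 and DiffBind and the builds mm10 and dm3, with no versions. The 2 region lists, per the file headers, come from DiffBind, and the value per region in them was not used.

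A gene was called at a deposited adjusted p under 0.05 with a baseMean of at least 10. Size factors and whole reads of each library were solved from baseMean and fold change, which also showed that the authors' fit paired the libraries. The recovery and the limma fits were tested on simulated data. Libraries paired in the fit deviated together (correlation 0.30 over genes). The labels do not say what a replicate number shares, and the recovered libraries could not be tied to these numbers. No count model was fitted because the files hold no counts. Alternatives used limma (version 3.58.1, R 4.3.3) on log2(normalised reads + 1), and Python 3.11.15 with pandas 2.3.3.

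Named genes are Suz12, the members of 45 lists, the 15 largest rises and 15 largest falls (baseMean of at least 100), the 5 most abundant called genes each way with a log2 fold change of at least 1, and the 10 largest differences between isoforms each way. Members and lists were chosen with earlier results of these data known. Some listed genes are counted but not reported here by name. The difference between KO-L and KO-S was the difference of deposited fold changes over the root of the summed squared SE, with a normal p and Benjamini-Hochberg adjustment. Motifs were read in RefSeq promoters of GRCm38.p6, which matches mm10. Symbols were matched to RefSeq for 15903 genes.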

Additional observations from a re-analysis of the deposited data

Results flagged for a closer look

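Results in this section are differences between the isoforms, KO-L minus KO-S on the log2 scale, that passed the test at an adjusted p under 0.05. In all, 712 genes had KO-L above KO-S and 892 had it below, and the 10 largest each way with a mean of at least 100 are given.

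Wnk3, a kinase gene on the X chromosome, had 1128 and 1213 normalised reads in KO-L, 1210.0 and 684 in KO and 1257, 965, 955 and 976 in WT, but no read in either KO-S library. With a floor of 3 reads over the group, KO-L was at least 832-fold higher than KO-S, and the fitted difference of 12.74 (adjusted p 0.0195) depends on that zero. Serpinb9g (81.5 and 143 in KO-L, 6.44 and 0 in KO-S) differed by 6.08 ± 1.67. Dmrt1 (5.7 ± 0.56), Stra8 (4.85 ± 1.14) and Rbmxl2 (4.39 ± 0.44), which germ cells express, were also higher in KO-L than in KO-S. For Rbmxl2 the KO-L libraries (912 and 615) overlapped those of KO (716 and 356), and it was KO-S that was low (49.7 and 25.8). Lefty2 differed by 4.42 ± 0.55, Cdh5 by 4.38 ± 0.53, Pgbd5 by 4.21 ± 0.55 and Hic1 by 4.15 ± 0.49. For Ccdc3 the difference was 4.32 ± 0.6, with 230.0 and 247 in KO-L, 279 and 356 in KO and 9.21 and 15.3 in KO-S.

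Below KO-S stood Aldh1a1 (-5.88 ± 0.34) and its near copy Aldh1a7 (-5.72 ± 0.37), between which reads may be split. Barx2 (-5.32 ± 0.48), Prom2 (-5.11 ± 0.43), Krt4 (-4.64 ± 0.56), Clca1 (-4.61 ± 0.53) and Rab27b (-4.22 ± 0.35), which epithelia express, followed. Prom2 had 23.7 and 22.4 normalised reads in KO-L, against 810.0 and 787 in KO-S, which lay between the KO libraries (768 and 857). Cbln2, which encodes a synaptic organiser, differed by -4.7 ± 0.52, and Ifit1 by -4.15 ± 0.45. The KO libraries disagreed on Apoa4 (84 and 965), for which the difference was -4.92 ± 1.34 with 18.9 and 35.8 in KO-L and 632 and 879 in KO-S.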

How the results depend on the processing

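The 1806 genes called higher and 2295 called lower stayed within 1.5 times of these counts with an adjusted p under 0.01 or 0.1, without a minimum of baseMean or with one of 100, with p adjusted over the genes tested, and with fold changes recentred by 0.034. Requiring a log2 fold change of at least 1 left 1031 higher. In limma without the replicate block 1736 and 2302 genes were called (6141 at an unadjusted p under 0.05), holding 85.4% and 89.8% of the deposited calls with reads, and with the replicate block 2562 and 3161, holding 98.8% and 99.7%. Leaving out 1 library gave 483 to 3572 higher and 1075 to 3770 lower, and the counts were low where a KO-L library was left out and the spread came from the KO libraries alone. The same fits gave, by list, 0 to 11 naive pluripotency genes higher, 10 to 18 neuron genes, 7 to 14 fibroblast genes and 5 to 9 blood and endothelial genes higher, and 9 to 15 MHC genes lower. With a baseMean of at least 100, 4 proneural genes were higher. No named gene that was called changed sign in any of these settings. Of the 465 called named genes with reads, limma kept the call of 420 without and 464 with the block, of 456 and 448 without KO library 1 or 2, and of 269 and 277 without KO-L library 1 or 2. With the SE of the difference multiplied by the root of 0.5, 1737 genes had KO-L above KO-S and 1997 below, and limma on the reads gave 2016 and 2143. List medians that changed sign were those of dorsoventral factors (-0.59, or 0.08 without a minimum), sex-linked genes (-0.58, or 0.02 at 100), and cardiac (0.02, or -0.02) and Hedgehog genes (0.02, or -0.01) when recentred. Counts near regions with a distance of 0 or 10000 bases stayed within 1.5 times.

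Precision was lower at low levels: the median SE of the log2 fold change was 1.22 for genes with a baseMean of 10 to 30, 0.42 with 100 to 300 and 0.19 above 3000. Of these genes 9.50%, 33.2% and 27.03% were called. With 2 libraries a group, of which the KO pair differed from each other, calls rest on the authors' paired fit.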

Other observations

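The largest called differences by abundance were partly outside the lists. Among the most abundant RNAs that rose by at least 1 on the log2 scale in the authors' deposited table were the chaperone gene Hsp90aa1 (1.14 ± 0.17), the pyruvate kinase gene Pkm (1.02), the desaturase gene Scd2 (1.32) and the tubulin gene Tuba1a (1.4). Levels per library of these 4 genes were above the range in which reads were recovered. Tnfsf13b, a cytokine gene that was not on any list, had 3.61 and 5.14 normalised reads in KO, 222 and 197 in KO-L and 6.44 and 9.56 in KO-S (5.59 ± 0.7 in the authors' deposited table, adjusted p 4.05e-14). Xlr4a, a member of an X-linked multigene family whose copies may share reads, had 257 and 414 in KO and 6.63 and 4.48 in KO-L (-5.85 ± 0.62 in the authors' deposited table, adjusted p 1.19e-19). Cers3, a ceramide synthase gene of the epidermis, had 381 and 235 and 4.74 and 7.83 (-5.6 ± 0.62, adjusted p 5.65e-18 in the authors' deposited table).

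Neural crest and axon guidance genes were counted too. In the authors' deposited table, 3 of 12 neural crest genes were higher and 1 lower, with the neurotrophin receptor gene Ngfr at 115 and 45.2 normalised reads in KO and 1960.0 and 2032 in KO-L (4.74 ± 0.32, adjusted p 8.48e-48). Of 31 axon guidance genes 12 were higher and 7 lower there. Of 28 collagens 9 were higher and 6 lower, of 30 further matrix genes 8 and 9, of 16 primitive streak and mesoderm genes 6 and 1, and of 13 cardiac and muscle genes 4 and 4, in the authors' deposited table. CDK inhibitors and D cyclins had 2 higher and 5 lower of 10, DNA methylation and TET enzymes 2 and 0 of 8, and sex-linked genes 0 and 4 of 9, in the authors' deposited table. Over all genes tested, 11.4% were higher and 14.4% lower. Without KO-L library 1 or 2, limma kept 7 and 6 of the 12 axon guidance rises and 2 and 5 of the 7 falls, 5 and 6 of the 9 collagen rises and 4 and 3 of the 6 falls, and 3 and 3 of the 8 matrix rises and 1 and 3 of the 9 falls. It kept 2 and 2 of the 5 falls of CDK inhibitors and D cyclins and 0 and 1 of the 2 rises of DNA methylation and TET enzymes.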
